A study of Sus scrofa with 2 samples.

Results

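The genes described here are 10 transcription factors of the ovarian granulosa cell, the somatic cell that surrounds the oocyte: FOXL2, FOXO1, FOXO3, GATA4, GATA6, WT1, NR5A2, NR2F2, RUNX1 and RUNX2. They were chosen by name, as factors of granulosa identity, of follicle loss (atresia) and of the ovulatory response, out of 34570 genes in the deposited tables. Of these, 9 were found under their symbol and 1, GATA6, under the older spelling GATA-6. The tables hold 1 library of porcine (Sus scrofa) follicular granulosa cells given a control siRNA (NC-siRNA) and 1 library of such cells given an siRNA against SMAD4 (SMAD4-siRNA). SMAD4 is the partner that receptor-activated SMADs of the TGF-beta, activin and BMP pathways need for most of their work in the nucleus. All cells came from ovaries of Chinese Erhualian pigs, and the RNA of 3 individuals was pooled for each library. Whether both pools came from the same animals is not given in the labels, so a difference between the siRNAs and a difference between animals cannot be told apart. No cell line, transgene, age, dose or time after transfection is named in the labels.

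A granulosa cell keeps its identity through a small set of DNA-binding proteins. FOXL2, WT1 and the GATA factors set up and hold the female supporting cell fate, FOXO proteins hold cells in check or drive their loss when growth factor signalling through AKT is low, and NR5A2 and RUNX factors take part in the change that the LH surge starts before ovulation. FOXO proteins are controlled largely by phosphorylation and exclusion from the nucleus, and RNA levels do not show that step.

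Levels are given in upper-quartile RPKM, a value per transcript length that can be compared between genes. The libraries held at least 17680952 reads on genes (control) and 17394711 (SMAD4 siRNA), counted as the smallest whole reads that the values allow. All 10 factors had a mean value of at least 1 and at least 100 reads over both libraries. As each condition is 1 library, no difference can be tested. Each range in brackets is a 95% counting interval, which covers counting error only and not the spread between animals or transfections. In these pooled cells, fewer cells of a type and less RNA per cell cannot be told apart. SMAD4 itself, the check of the labels, was at 85.0 with control siRNA and 47.9 with SMAD4 siRNA, a ratio of 0.563 (0.497 to 0.639).

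The libraries were checked against cell markers. Of 9 granulosa markers 7 were measured, with INHBA at 663 and 868, FST at 604 and 556 and INHA at 177.5 and 150.5 in the control and SMAD4 siRNA libraries. FOXL2, itself a factor described here, is among the measured markers, at 132 and 146. The granulosa check is therefore not fully independent of the factors. AMHR2 had 35 and 19 reads, a ratio of 0.493 (0.266 to 0.886). AMH and CYP19A1, which define growing and estrogen-making granulosa cells, were listed at 0 in both, and FSHR had 9 and 7 reads. A listed 0 does not show absence here, since YWHAE, a 14-3-3 protein that nearly all cells make, was also listed at 0 in both libraries. YWHAE was found by its gene number only, while AMH and CYP19A1 are listed under their symbols. The theca markers CYP17A1, INSL3 and LHCGR were listed at 0 in both, while the stromal genes PDGFRA, DCN and COL1A1 were present. The 7 theca and stroma markers summed to 16264 and 16425, and the 9 granulosa markers, with FOXL2 included, to 1608 and 1750.1. COL1A1 made up most of the theca and stroma sums (13567 and 14344), while PDGFRA and DCN were lower after SMAD4 siRNA. The 4 smooth muscle markers summed to 41200.1 and 32058, with MYH11, the defining myosin, listed at 0 in both under its symbol. Most of this was ACTG2 (34413 and 25939). CNN1 was also lower after SMAD4 siRNA, while DES was higher (1423 and 1656). MYH11, PDGFRA and COL1A1 each have a second entry, which these sums leave out. The 4 leukocyte markers with an entry summed to 583 and 570.03, nearly all of it CD14, with PTPRC, the pan-leukocyte antigen, at 1 and 2 reads. Endothelial markers summed to 445 and 341 over 6 with an entry, with TEK and TIE1 at 0. Of the 4 oocyte markers, GDF9 was at 73.2 and 56.6 on 87 and 74 reads and BMP15 had 1 and 2 reads. ZP3 and DAZL were listed at 0 in both. The 4 surface epithelium markers summed to 33.3 and 33.7. The part of these cells in the results below was not tested.

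Of the 10 factors, 9 differed by less than 1.5-fold between the 2 libraries, and the largest difference was that of RUNX2. The rule of size was a 2-fold difference in (value + 1), where the added 1 steadies low values. By this rule 1 of 10 factors was lower after SMAD4 siRNA, RUNX2, and 0 were higher. The call of RUNX2 was lost, leaving 0 factors lower, in each of 3 alternatives: with both libraries scaled to the same sum of values, with both scaled to their total reads, and with the reads of both entries that the tables hold for RUNX2 (ratio 0.682, against 0.300 for the entry under the symbol). Under the 2 rescalings the plain ratio of the symbol entry stayed at 0.326 and 0.336. The call was lost there because the smaller values give the added 1 more weight. Among all 16609 measured genes (mean value of at least 1), 6.68% were lower and 7.17% higher. Among the 9664 genes with at least 100 reads the shares were 1.12% and 1.32%. The median log2 ratio of the 10 factors was -0.10, against -0.05 for all measured genes. A counting interval lay wholly below 1 for 3 factors (RUNX2, FOXO1 and GATA6) and wholly above 1 for 1 (RUNX1). Of all genes with at least 100 reads, 32.4% had an interval below 1 and 17.6% had one above 1. The 4 of 10 factors with an interval on either side compare with 50.0% of these genes, and with 34.2% of all measured genes, so the share among the factors is near the background.

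**Figure D1:**
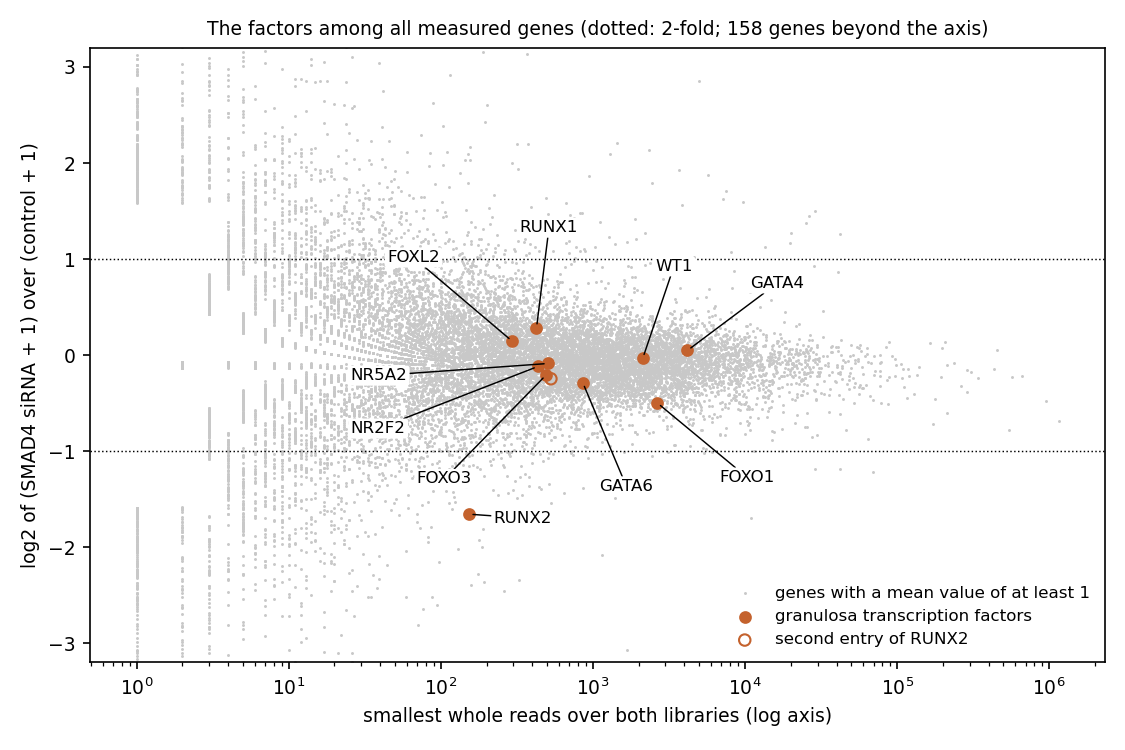
Each grey point is 1 of 16609 measured genes, placed by its reads over both libraries (x axis, log scale) and its log2 ratio of SMAD4 siRNA over control values, each with 1 added (y axis). Filled orange points are the 10 factors, of which RUNX2 alone (log2 ratio -1.66) lies past the dotted 2-fold lines, and the open point is the second entry of RUNX2.

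The scaling of the libraries matters for the small differences. Giving both libraries an equal sum of values, as is done for TPM, multiplies each ratio of SMAD4 siRNA over control values by 1.09, and scaling to the total of recovered reads multiplies it by 1.12. As deposited, 7 of 10 factors had a ratio below 1 and 3 had one above. With the same sum it was 5 and 5, and with total reads 4 and 6. FOXO1, FOXO3, GATA6 and RUNX2 were below 1, and FOXL2, GATA4 and RUNX1 above 1, under all 3 scalings. WT1 and NR5A2 changed sides under both rescalings and NR2F2 under the scaling to total reads. Intervals wholly below and wholly above 1 numbered 3 and 1 as deposited, 2 and 2 at the same sum and 2 and 3 at total reads. Over all genes with at least 100 reads the shares below and above turned from 32.4% and 17.6% to 19.6% and 30.8% at the same sum, and to 16.2% and 36.2% at total reads. Any ratio below 1 but greater than 0.921 turns to above 1 at the same sum, and any greater than 0.893 does so at total reads.

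**Figure D2:**
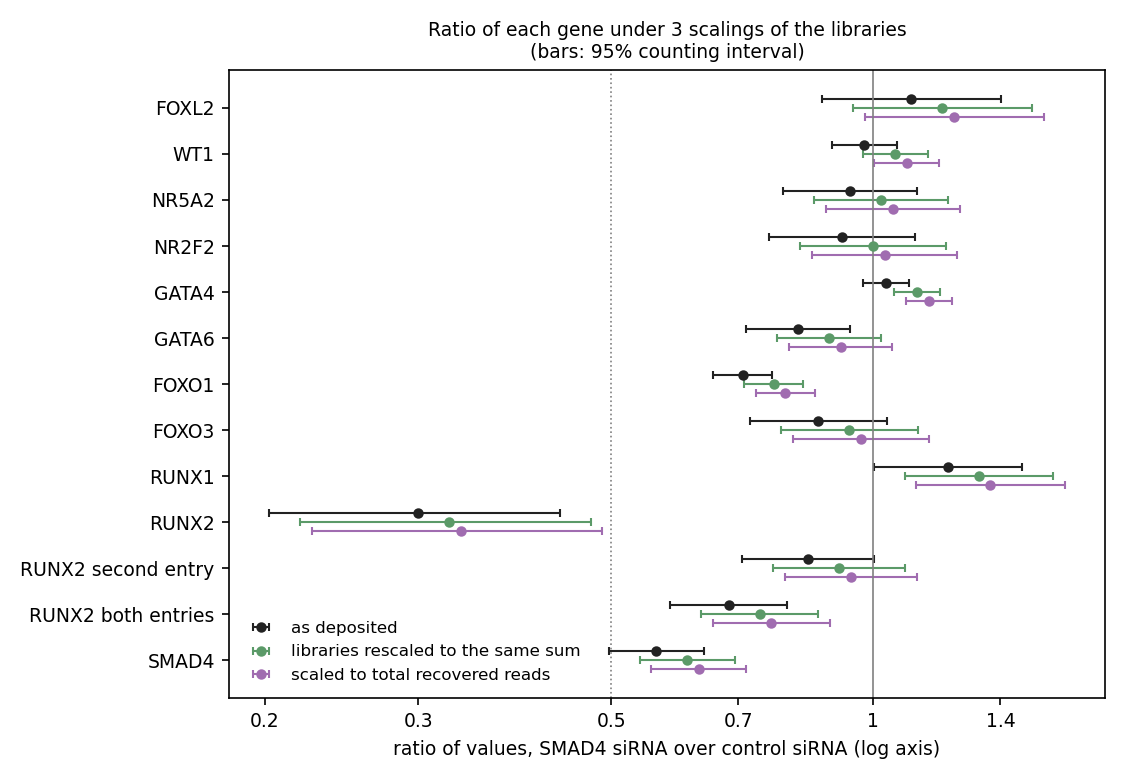
Each point is the ratio of values, SMAD4 siRNA over control (x axis, log scale), of a gene named on the y axis under 3 scalings of the libraries, with its 95% counting interval. FOXO1 and RUNX2 lie left of 1 and RUNX1 right of 1 with their whole intervals under all 3, and the 2 entries of RUNX2 lie apart.

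FOXL2, the forkhead factor that keeps granulosa cells from taking on a testicular fate, was at 132 with control siRNA and 146 with SMAD4 siRNA. These values rest on 133 and 162 reads, the fewest of any factor but RUNX2, so the ratio of 1.11 has a wide interval (0.874 to 1.40). A difference of that size was not detectable at this depth. FOXL2 stood above 64.1% of the 17277 genes with a value in the control library and above 66.6% of the 17390 in the other.

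WT1, a zinc finger factor of gonad formation that granulosa cells of small follicles make in large amounts, was among the strongest, at 521 with control siRNA and 509 with SMAD4 siRNA. With 1025 and 1102 reads, its ratio of 0.976 had a narrow interval (0.896 to 1.06). It became 1.06 (0.973 to 1.16) with both libraries at the same sum. At total reads it was 1.09, with an interval wholly above 1 (1.003 to 1.19). As the side depends on the scaling, no direction is given for WT1. Its value was higher than that of 83.6% of genes in the control library.

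NR5A2 (LRH-1), the orphan nuclear receptor that ovulation and luteinization require, was at 131 with control siRNA and 123 with SMAD4 siRNA, from 250 and 259 reads. Its ratio was 0.941 (0.788 to 1.12). NR5A1 (SF-1), the related receptor that binds much the same DNA, was at 265 and 225, a ratio of 0.849 (0.741 to 0.973). The level of NR5A1 was thus above that of NR5A2 in both libraries.

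NR2F2 (COUP-TFII), an orphan nuclear receptor known mainly from theca and stromal cells, was at 72.9 with control siRNA and 67.1 with SMAD4 siRNA, from 217 and 220 reads. Its ratio of 0.921 had an interval on both sides of 1 (0.760 to 1.12). The closely related NR2F1 was at 129 and 126, a ratio of 0.980 (0.826 to 1.16), and NR2F6 at 231 and 234, a ratio of 1.01 (0.885 to 1.16). All 3 receptors of this family therefore had intervals that hold 1. Of the 4 theca and stroma markers measured, DCN was at a ratio of 0.743, PDGFRA at 0.877 and COL1A1, by far the highest of them, at 1.06 (1.01 to 1.11), while TCF21, a stromal transcription factor, had 29 and 30 reads. Their part in the NR2F2 values was not tested.

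The GATA factors are zinc finger proteins that bind the promoters of steroidogenic genes, and the follicle needs GATA4 and GATA6 together. GATA4 was at 748 with control siRNA and 774 with SMAD4 siRNA, from 1958 and 2230 reads, a ratio of 1.03 (0.973 to 1.10). GATA6 was at 293 and 240.2, from 451 and 407 reads, a ratio of 0.820 (0.715 to 0.939). GATA6 was the lower of the pair in both libraries, and its interval was wholly below 1 as deposited but held 1 with both libraries at the same sum (0.890, 0.776 to 1.02). On that scale GATA4 was at 1.12 (1.06 to 1.19).

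The comparison of GATA4 with GATA6 within each library does not depend on the scaling. GATA4 was 2.55 times as high as GATA6 with control siRNA and 3.22 times with SMAD4 siRNA. The exact conditional interval for the change of this quotient, 1.26 (1.09 to 1.47), lay above 1. The other GATA genes were near the floor: GATA1 was listed at 0 in both libraries, GATA2 had 0 and 3 reads, GATA3 6 and 0, and GATA5 0 and 1. ZFPM2 (FOG2), the cofactor that binds GATA4, had 57 and 45 reads and a ratio of 0.717 (0.474 to 1.08).

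FOXO1, the forkhead factor that FSH and AKT signalling shut off in granulosa cells, was the highest of the 10 in both libraries. It was at 1130.4 with control siRNA and 800.5 with SMAD4 siRNA, from 1489 and 1161 reads. The ratio was 0.708 (0.655 to 0.765), and it stayed below 1 with its whole interval at the same sum (0.769, 0.711 to 0.830) and at total reads (0.793, 0.733 to 0.856). FOXO1 did not reach the 2-fold rule. Of genes with at least 100 reads, 8.51% had a lower log2 ratio than FOXO1.

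FOXO3, known best for holding primordial follicles dormant from within the oocyte, was at 202 with control siRNA and 175 with SMAD4 siRNA. With 252 and 240 reads, its ratio of 0.865 had an interval that held 1 (0.722 to 1.04). FOXO4, which shares the AKT sites of both, was at 167 and 179.9, a ratio of 1.08 (0.958 to 1.22). Within the family FOXO1 was 5.60 times as high as FOXO3 with control siRNA and 4.59 times with SMAD4 siRNA. The change of this quotient was 0.819 (0.672 to 0.998), an interval that ends just short of 1.

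RUNX1, a factor of the early granulosa lineage that the LH surge also induces, was the factor with the highest ratio. It was at 147 with control siRNA and 179.5 with SMAD4 siRNA, from 182 and 244 reads. The ratio was 1.22, with an interval that begins at 1 as deposited (1.001 to 1.48) and higher at the same sum (1.32, 1.09 to 1.61). RUNX1 is also a blood and endothelial factor. Beside it, 4 endothelial markers were measured: PECAM1 and ERG had ratios of 0.875 and 0.582, VWF had 7 and 6 reads and KDR 5 and 13. Of the leukocyte markers, CD14 was at a ratio of 0.978, ITGAM had 4 and 9 reads, CSF1R 8 and 3 and PTPRC 1 and 2. The part of such cells in the RUNX1 values was not tested.

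RUNX2, the skeletal regulator that granulosa cells switch on after the LH surge, was the lowest factor in both libraries by its entry under the symbol. That entry was at 39.8 with control siRNA, from 115 reads, and at 11.9 with SMAD4 siRNA, from 38 reads. The ratio was 0.300 (0.202 to 0.436), and of genes with at least 100 reads only 0.197% had a lower log2 ratio. Its whole interval also lay below 1 at the same sum (0.326, 0.220 to 0.474) and at total reads (0.336, 0.226 to 0.489).

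The tables hold a second entry for this gene. LOC100737965 carries the gene number that the reference table of assembly Sscrofa11.1 names RUNX2, and no other of the 10 factors has a second entry. It was at 190.3 with control siRNA and 160.2 with SMAD4 siRNA, from 275 and 255 reads, a ratio of 0.842 (0.707 to 1.002). The second entry was thus 4.78 times as high as the entry under the symbol with control siRNA and 13.4 times as high with SMAD4 siRNA, and the 2 ratios differed beyond counting error. The quotient of the 2 ratios was 0.357 (0.231 to 0.542).

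The smallest whole reads of both RUNX2 entries summed to 390.0 and 293, a ratio of 0.682 (0.584 to 0.796). It remained below 1 at the same sum (0.741, 0.634 to 0.864), and it did not reach 2-fold. The symbol's share of these reads was 29.5% with control siRNA and 13.0% with SMAD4 siRNA. As the reads of each entry are lower bounds, the weight of each in this sum, its interval and these shares is not known. The values of both entries summed to 230 and 172, a ratio of 0.748. The smallest lengths that fit the values are 3249 bases for the entry under the symbol and 1624 for the second. The labels and tables do not name the annotation, so which exons or transcripts each entry covers is unknown, and the 3.33-fold difference is that of 1 of the 2 entries. Counted with both entries, 0 of 10 factors were lower by 2-fold.

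By level, the order of the 10 factors in the control library was FOXO1, GATA4, WT1, GATA6, FOXO3, RUNX1, FOXL2, NR5A2, NR2F2 and RUNX2. The order in the SMAD4 siRNA library was the same except that RUNX1 stood above FOXO3. Neighbours in this order were mostly apart beyond counting error in the control library, other than RUNX1 and FOXL2, and FOXL2 and NR5A2, whose intervals overlapped. In the SMAD4 siRNA library the intervals of FOXO1 (800.5, 755 to 848) and GATA4 (774, 742 to 807) overlapped, as did those of RUNX1 and FOXO3, FOXO3 and FOXL2, and FOXL2 and NR5A2. FOXO1 had been 1.51 times as high as GATA4 with control siRNA and was 1.03 times as high with SMAD4 siRNA, a change of the quotient of 0.685 (0.620 to 0.756). The RUNX2 entry under the symbol was last in both, while its second entry would stand between FOXO3 and RUNX1 in the control library and between FOXO3 and FOXL2 in the other.

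**Figure D3:**
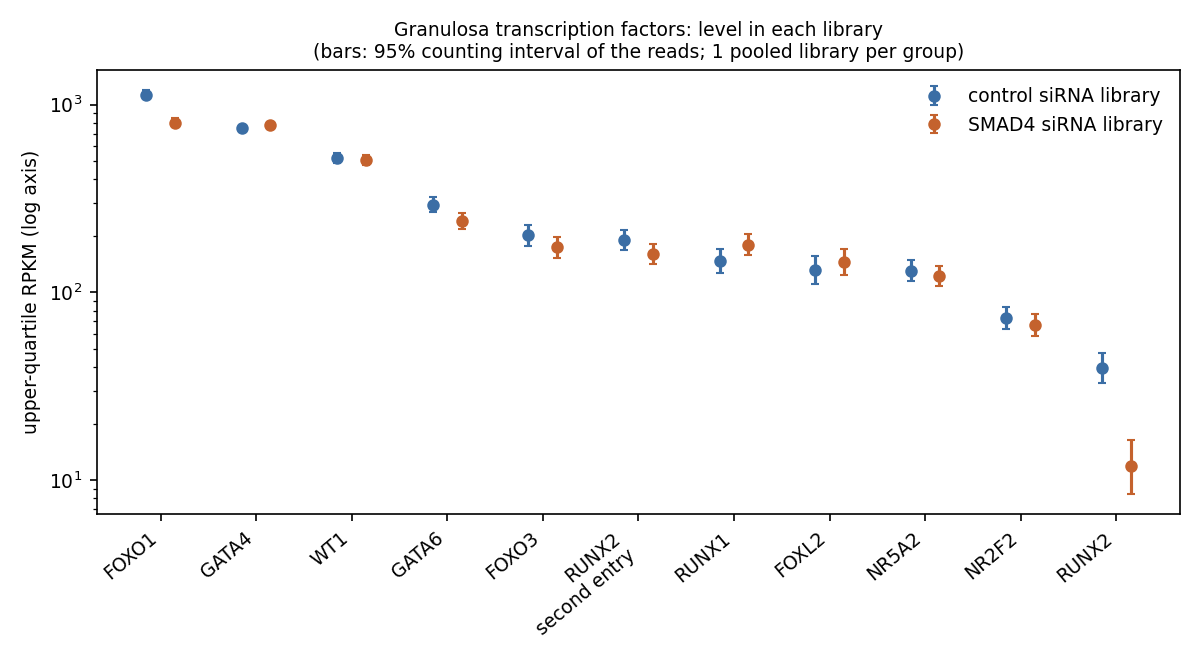
Points give the level (upper-quartile RPKM, log axis) of each factor on the x axis in the control siRNA library (blue) and the SMAD4 siRNA library (orange), with 95% counting intervals as bars. FOXO1 goes from 1130.4 to 800.5, near the level of GATA4, and the RUNX2 entry under the symbol goes from 39.8 to 11.9 while the second entry stays between 160.2 and 190.3.

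Quotients between factors within a library are free of the scaling, so all 45 pairs were compared, with RUNX2 taken by its symbol entry. The share of pairs of other genes whose interval excludes 1 was not computed, so nothing is read from how many of the 45 did so. FOXO1 was lower relative to FOXL2, FOXO3, GATA4, WT1, NR5A2, NR2F2 and RUNX1, with intervals of the change that excluded 1, while its interval against GATA6 held 1, and it was higher relative to the RUNX2 symbol entry, a quotient of 2.36 (1.61 to 3.53). RUNX1 against the RUNX2 symbol entry had the largest change, from 3.71 times as high to 15.0 times, a quotient of 4.05 (2.64 to 6.31). The second RUNX2 entry gave another picture. It was above RUNX1 with control siRNA (190.3 against 147) and below it with SMAD4 siRNA (160.2 against 179.5). The 45 pairs share members and are not independent.

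Partners of the factors gave no common direction. Of 19 paralogs and partners 11 were measured, 6 with a log2 ratio above 0 and 5 below, with a median of 0.02. Only GATA2, at 0 and 3 reads, passed 2-fold. CITED2, a coactivator that works with WT1, had the highest level of them, at 1272 and 1177, a ratio of 0.926 (0.872 to 0.982). The Groucho corepressors that RUNX proteins recruit differed among themselves: TLE1 was at 222 and 259, a ratio of 1.17 (1.06 to 1.28), TLE4 at 164 and 113, a ratio of 0.689 (0.614 to 0.772), and TLE2 at a ratio of 0.876 (0.733 to 1.05). TLE3 had 12 and 22 reads and a second entry. RUNX1T1, the corepressor ETO, had 22 and 45 reads and a ratio of 1.86 (1.09 to 3.25), and RUNX3 had 1 and 0 reads.

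Among 16 other ovarian transcription factors 12 were measured, with a median log2 ratio of -0.16. Intervals lay wholly below 1 for 5 and wholly above for 1, and for 3 and 2 at total reads. Of all measured genes 21.5% had an interval below 1 and 12.7% had one above, and at total reads 11.2% and 24.7%. Of the 12 factors 7 had at least 100 reads. Over all genes with that many reads the shares were 32.4% and 17.6%, and 16.2% and 36.2% at total reads. CEBPB, which the LH surge induces through ERK, was at 343 and 211, a ratio of 0.614 (0.514 to 0.732). SOX4 was at 0.758 (0.698 to 0.823) and NR3C1, the glucocorticoid receptor, at 0.798 (0.691 to 0.921). HIF1A, the oxygen-regulated factor, was the one with an interval above 1, at 1.19 (1.10 to 1.28). LHX9 was the only measured one past 2-fold, on 0 and 2 reads. PGR, the progesterone receptor of the ovulatory response, had 0 and 6 reads and a mean value below 1, so it was not among those measured.

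Genes of the testicular pathway, the fate that FOXL2 holds down, were mostly near the floor. Of 9 genes 3 were measured, and AMH, DMRT1 and PTGDS were listed at 0 in both libraries. SOX9, the Sertoli cell factor whose gene FOXL2 represses, was at 3.04 with control siRNA (5 reads) and 19.9 with SMAD4 siRNA (36 reads). Its ratio of 6.54 (2.56 to 21.3) was the one past 2-fold in this list, and SOX9 is named after its values were seen. FOXL2 was at 132 and 146 in the same libraries. GDNF, a Sertoli growth factor that granulosa cells also make, was at 113 and 72.2, a ratio of 0.637 (0.493 to 0.820).

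The genes that control FOXO proteins were measured for 27 of 30, with a median log2 ratio of -0.21. Intervals were below 1 for 11 and above 1 for 4, and at total reads for 7 and 7. The shares over all measured genes were again 21.5% and 12.7%, and 11.2% and 24.7% at total reads. Of the 27 genes 20 had at least 100 reads. Over all genes with that many reads the shares were 32.4% and 17.6%, and 16.2% and 36.2% at total reads. IGF1R, the receptor through which IGF1 activates AKT, was at 409 and 318, a ratio of 0.777 (0.721 to 0.837). SGK1, a kinase that phosphorylates FOXO proteins at AKT sites, was at 519 and 363.5, a ratio of 0.701 (0.641 to 0.765). AKT2, a kinase that phosphorylates FOXO proteins directly, was at 1125 and 1194, a ratio of 1.06 (1.01 to 1.11).

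XPO1, the exportin that carries FOXO proteins out of the nucleus, was at 1.39 (1.11 to 1.74), CREBBP, an acetyltransferase that modifies them, at 1.35 (0.951 to 1.94), and MDM2, a ubiquitin ligase, at 1.23 (1.03 to 1.47). YWHAH, a 14-3-3 protein of the kind that holds FOXO in the cytoplasm, was at 0.710 (0.677 to 0.745). The genes past 2-fold were SGK3, on 5 and 14 reads, and PIK3R1, on 14 and 3 reads.

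Target genes of FOXO proteins were measured for 22 of 27, with a median log2 ratio of -0.13. Intervals were below 1 for 9 and above 1 for 2 of them, beside 21.5% and 12.7% of all measured genes. At total reads they were below for 5 and above for 5, beside 11.2% and 24.7%. Of the 22 targets 20 had at least 100 reads. Among all genes with that many reads the shares were 32.4% and 17.6%, and 16.2% and 36.2% at total reads. By the 2-fold rule 1 gene, TRIM63, was lower as deposited, and with both libraries at the same sum its ratio of 0.530 fell short of 2-fold. TRIM63 and FBXO32, the atrophy ubiquitin ligases MuRF1 and atrogin-1 known as direct FOXO targets, had the lowest ratios in the list. TRIM63 was at 278 and 136, a ratio of 0.489 (0.400 to 0.596). FBXO32 was at 1447 and 949, a ratio of 0.656 (0.589 to 0.729). The autophagy genes GABARAPL1 and MAP1LC3B were at 0.815 and 0.818, the mitochondrial dismutase SOD2 at 0.762 (0.744 to 0.781) and SESN1 at 0.779.

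Some FOXO targets had ratios above 1. The stress-induced sestrin SESN2 was at 1.13 (1.04 to 1.23), KLF4 at 1.31 (1.06 to 1.62), the death gene PMAIP1 at 1.31 (0.989 to 1.73) and the cyclin CCNG2 at 1.21 (0.940 to 1.56). BCL2L11, CDKN1B and FASLG, FOXO targets of cell death and arrest, were listed at 0 in both libraries. Whether TRIM63 and FBXO32 moved with FOXO1 was not tested, since 1 library per group gives a single difference for each gene.

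Targets of FOXL2, GATA and NR5A factors in granulosa cells were measured for 10 of 16, with a median log2 ratio of 0.13. Intervals were below 1 for 1, AMHR2 at 0.493, and above 1 for 3, beside 21.5% and 12.7% of all measured genes. At total reads they were below for 1 and above for 4, beside 11.2% and 24.7%. Of the 10 targets 6 had at least 100 reads. Over all genes with that many reads the shares were 32.4% and 17.6%, and 16.2% and 36.2% at total reads. HSD3B1, the enzyme that makes progesterone, had the highest ratio among those with at least 100 reads, 1.90, followed by INHBA at 1.31 and the lipoprotein receptor SCARB1 at 1.12 (1.07 to 1.17). The gap junction gene GJA1 was at 1.06, FST, the activin-binding follistatin, at 0.920 (0.816 to 1.04), and INHA, the inhibin alpha subunit, at 0.848 (0.694 to 1.03). STAR passed 2-fold on 6 and 15 reads. CYP11A1, CYP19A1, LHCGR, INHBB and AMH were listed at 0 in both libraries.

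Genes of the ovulatory response, the setting in which RUNX factors act, were measured for 10 of 15, with a median log2 ratio of -0.15. Intervals were below 1 for 6 and above 1 for 2 (21.5% and 12.7% of all measured genes), and at total reads for 3 and 2 (11.2% and 24.7%). Of the 10 genes 6 had at least 100 reads. Over all genes with that many reads the shares were 32.4% and 17.6%, and 16.2% and 36.2% at total reads. RGCC, a cell cycle regulator listed as RGC32, was at 3833 and 2992, a ratio of 0.781 (0.732 to 0.832), and the protease ADAMTS1 at 0.798 (0.715 to 0.890). CTSL, which has a second entry, was at 0.856, MMP19 at 0.893, the cumulus matrix proteoglycan VCAN at 0.906 and PTGES, the prostaglandin E synthase, at 1.10. EREG, on 8 and 28 reads, was the one past 2-fold. PTGS2 had 10 and 10 reads, and TNFAIP6, a hyaluronan cross-linker, was listed at 0 in both libraries.

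Targets that RUNX2 has in bone were measured for 5 of 9, of which 3 had at least 100 reads, and 0 passed 2-fold. Intervals were below 1 for 0 and above 1 for 2, beside 21.5% and 12.7% of all measured genes. The counts were the same at total reads, beside 11.2% and 24.7%. SPP1 (osteopontin) was at 269.7 and 509.5, a ratio of 1.89 (1.67 to 2.14). The RUNX2 symbol entry was at 0.300 and the second RUNX2 entry at 0.842. COL1A1, with a second entry, was at 1.06 and VEGFA at 0.970. Targets of WT1 were measured for 7 of 11, of which 6 had a log2 ratio below 0 as deposited. Their median was -0.27, against -0.05 for all measured genes. Intervals were below 1 for 2 and above 1 for 0 (21.5% and 12.7% of all measured genes), and at total reads for 1 and 1 (11.2% and 24.7%). Only IGF1R, NR5A1 and PDGFA (ratio 1.02) had at least 100 reads among these targets. Of all genes with that many reads 32.4% had intervals below 1 and 17.6% above, and at total reads 16.2% and 36.2%.

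**Figure D4:**
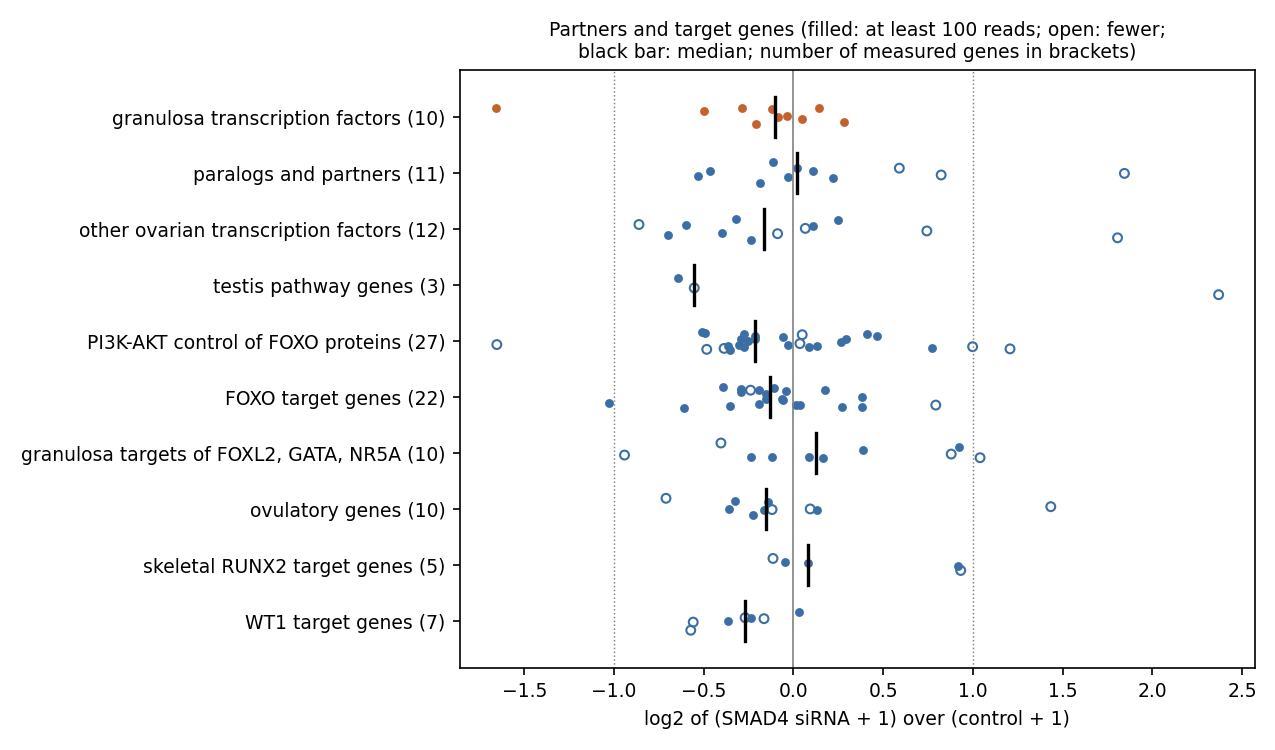
Each point is 1 measured gene, placed by its log2 ratio of SMAD4 siRNA over control values, each with 1 added (x axis), in the list on the y axis. Filled points have at least 100 reads, black bars are medians, and dotted lines mark 2-fold. Medians lie between -0.55 (testis pathway, 3 genes) and 0.13, and apart from RUNX2 and TRIM63 the genes past 2-fold are open points.

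The genes most like the RUNX2 symbol entry were taken by the smallest difference in log2 ratio. Among 80 other genes of all lists with at least 100 reads, the nearest over the 2 libraries were TRIM63, whose log2 ratio differed by 0.70, and the endothelial factor ERG, whose log2 ratio differed by 0.96. Neither is close to it on that scale.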

How the data were processed

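The authors deposited 1 table per library of RPKM values scaled by the upper quartile, per the file headers and names. Total RNA was extracted with TRIzol, pooled and made into libraries with the Ion Total RNA-Seq Kit, per the labels' protocols. The labels and headers name no aligner, counter, use of strand, genome build or annotation, so no coordinates are printed, and reads of overlapping or antisense genes cannot be told apart.

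The commonest ratio between libraries, 0.908163 (665 genes), gave divisors of 890 and 980. At these, all 18428 genes above 0 gave whole reads at a length of up to 40000 bases (relative tolerance 2e-09, absolute 1e-06). The smallest solution is used, so reads are lower bounds. Ratios have exact Clopper-Pearson intervals from the split of reads, levels exact Poisson intervals, and quotients of ratios exact conditional intervals. Intervals cover counting error only, as amplified reads without molecular identifiers can share a molecule. The pseudocount was 1, and the 2-fold rule was applied where the mean value was 1 or more. Steps were tested on simulated data. Python 3.11.15, numpy 2.4.6, pandas 2.3.3, scipy 1.17.1 and matplotlib 3.10.9 were used.

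The members and lists were chosen with earlier results of these data known. Named are all members, SMAD4, paralogs and partners, up to 4 genes at each end of a list among those with at least 100 reads, the 2 genes most like a member past 1.5-fold, and cell markers. Genes named with fewer reads, as listed at 0 or as the highest of a kind were chosen after their values were seen. Symbols without a row were looked for by older name or gene number in a RefSeq table of Sscrofa11.1, used for names alone: of 19902 entries under a gene number, 2090 received a symbol, and 540 symbols have a second entry. Promoter and protein sequences were not used here. Some genes that the rule takes are counted in their lists and not reported here by name.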

Additional observations from a re-analysis of the deposited data

How the results depend on the processing

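No paired analysis was possible because each group has 1 library, and no replicate could be left out. The scaling to total recovered reads, the minimum of 100 reads and the sum of both RUNX2 entries were chosen after seeing the data. Factors lower by 2-fold numbered 1, against 0 with both libraries at the same sum, 0 at total reads, 0 with both RUNX2 entries summed and 3 by intervals wholly below 1. Both rescalings shrink all values, so that the pseudocount weighs more on RUNX2, whose plain ratio stayed at 0.326 and 0.336. Factors higher numbered 0, against 1 by intervals wholly above 1. Genes lower by 2-fold numbered 1110, against 437 with a pseudocount of 5, 112 at the same sum, 546 with a mean value of at least 5, 2277 at 1.5-fold, 3569 by intervals, 81 at total reads and 108 with at least 100 reads. For genes higher by 2-fold, the count of 1191 became 466, 208, 572, 2245, 2113, 171 and 128 under these settings. The median log2 ratio of the factors was -0.10 and ran up to 0.01 at the same sum and 0.05 at total reads. WT1 changed sides on centring as well as under both rescalings. The log2 ratio of RUNX2 lay between -1.73 and -0.55. The intervals of FOXL2, NR5A2, NR2F2 and FOXO3 hold 1 under all 3 scalings. RUNX2 (115 and 38), FOXL2 (133 and 162) and RUNX1 (182 and 244) have the fewest reads.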
